A study of Mus musculus with 6 samples.

Results

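MDSC grown in culture from bone marrow without Ly-6G+ cells (6G- BM-MDSC, 2 arrays) were compared with MDSC grown from whole bone marrow (MDSC (conv.), 2 arrays), gene by gene. These are 4 of the 6 arrays of the study, taken by their titles, and the other 2 hold dendritic cells (DCs). Bone marrow came from female C57BL/6J mice aged 6 to 8 weeks. Both MDSC groups were grown for 4 days with GM-CSF at 40 ng/mL, and DCs for 8 days at 20 ng/mL. For 6G- BM-MDSC, Ly-6G+ cells were removed from the marrow with magnetic beads at the start. Cultured cells were used directly or after another separation by Ly-6G, and the array labels name no such separation, so each array is read here as the mixed culture, in which cells can regain Ly-6G. The study asked which transcripts go with the stronger suppression of T cells by 6G- BM-MDSC. Its gene set analysis of both MDSC groups reported sets of inflammation and of metabolism as enriched in 6G- BM-MDSC. Its text then turned on glutathione transferases, and the genes described here lie beyond these transferases.

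MDSC are immature myeloid cells that restrain T cells, with a monocytic branch rich in Ly-6C and a granulocytic branch that carries Ly-6G. GM-CSF drives marrow cells towards granulocytes, monocytes and macrophages. Cells that grow and divide make cholesterol and fatty acids or take them up, and the genes for both are switched on together by the SREBP factors when membrane sterol is low. Activated myeloid cells instead switch on cytokines through NF-kB, which also induces its own inhibitors.

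The brightest probe stood for each of the 21860 genes tested. A level is log2 of the processed intensity minus the 75th percentile of the same array, so that 0 stands for that percentile, and a difference is 6G- BM-MDSC minus MDSC (conv.) on this scale. Of the 10 MDSC markers, 9 were well above background on all 4 MDSC arrays, among them Itgam (CD11b), Ly6c2, Ly6g, S100a8 and S100a9. Arg1, the arginase of suppressive myeloid cells, was well above background on none of these arrays. The 6 arrays shared 1 slide and 1 scan. Both MDSC (conv.) arrays lay in array columns 1 and 2 and both 6G- BM-MDSC arrays in columns 3 and 4, so position on the slide and group cannot be told apart. In bulk RNA, fewer cells of a type and less RNA per cell cannot be told apart either.

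Promoters are shown first for genes of both groups of transcripts that the results turn on, sterol synthesis below MDSC (conv.) and NF-kB-linked genes above it. Each sequence is the 250 bases before the start of the gene in RefSeq, on GRCm38.p6 and on the gene's strand. Capitals mark a match to TCACNCCAC (sterol regulatory element, chosen after the values were seen) in Hmgcs1, the first committed enzyme of the sterol pathway. In the other genes capitals mark a match to the NF-kB motif, GGG then any 2 bases then TTTCC, on either strand. Tnfaip3 had 2 promoters in RefSeq, of which the first is shown, and the other held no match to this motif. Cxcl3 and Cxcl1 are neutrophil-attracting chemokines, Nfkbia is the inhibitor that holds NF-kB in the cytoplasm, and Tnfaip3 (A20) shuts the pathway off.
Hmgcs1, chr13:119690101-119690350, plus strand: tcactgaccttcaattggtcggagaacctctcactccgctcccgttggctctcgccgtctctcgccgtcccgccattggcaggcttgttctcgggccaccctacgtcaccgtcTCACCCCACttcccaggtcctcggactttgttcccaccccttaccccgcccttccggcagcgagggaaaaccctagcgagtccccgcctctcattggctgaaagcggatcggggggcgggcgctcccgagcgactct
Cxcl3, chr5:90785851-90786100, plus strand: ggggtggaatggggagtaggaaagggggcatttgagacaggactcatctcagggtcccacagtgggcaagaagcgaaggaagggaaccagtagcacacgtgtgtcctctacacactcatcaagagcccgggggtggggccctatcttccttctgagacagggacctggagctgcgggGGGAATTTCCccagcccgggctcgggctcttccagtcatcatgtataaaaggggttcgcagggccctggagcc
Cxcl1, chr5:90890995-90891244, plus strand: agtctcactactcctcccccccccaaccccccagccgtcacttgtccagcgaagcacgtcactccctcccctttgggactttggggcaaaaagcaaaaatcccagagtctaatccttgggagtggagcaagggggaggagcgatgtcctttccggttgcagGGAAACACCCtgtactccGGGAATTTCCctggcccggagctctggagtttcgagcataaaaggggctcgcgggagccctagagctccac
Nfkbia, chr12:55492648-55492897, minus strand: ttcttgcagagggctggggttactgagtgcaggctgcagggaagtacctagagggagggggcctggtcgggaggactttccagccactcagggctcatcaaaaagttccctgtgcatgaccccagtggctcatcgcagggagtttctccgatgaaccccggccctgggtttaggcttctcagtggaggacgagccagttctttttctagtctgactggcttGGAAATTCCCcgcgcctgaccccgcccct
Tnfaip3, chr10:19015411-19015660, minus strand: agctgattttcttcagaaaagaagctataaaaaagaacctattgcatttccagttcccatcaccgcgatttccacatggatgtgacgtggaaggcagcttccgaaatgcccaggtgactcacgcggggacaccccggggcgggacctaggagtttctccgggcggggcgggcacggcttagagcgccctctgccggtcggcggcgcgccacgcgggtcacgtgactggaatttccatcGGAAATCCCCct
Of the genes on the NF-kB feedback list, 14 had a promoter (250 bases before to 50 after the start) in the RefSeq table, and 4 of these held this motif. For cytokines and chemokines it was 6 of 20, against 1.64% of all genes tested that had a promoter. The sterol element was found in 1 of 13 sterol genes and in 0 of 12 fatty acid genes, against 1.1%. NF-kB targets were in part defined by such sites, so these shares are a description.

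Both MDSC groups differed little. The difference was within 1.5-fold for 95% of genes. With limma on all 6 arrays, 1 gene was higher in 6G- BM-MDSC (0.00457% of genes tested) and 2 genes were lower (0.00915%) at an adjusted p under 0.05. Unadjusted, 914 genes (4.18%) were higher and 1443 (6.6%) lower at p under 0.05, 2357 in all, where 1093 would be so if no gene differed. With arrays scaled to their median, the split was 1433 higher and 930 lower. With an intensity-dependent prior variance in limma, 11 genes (0.0503%) rose and 53 (0.242%) fell. Nothing states that replicates were separate cultures or animals, so a p-value here covers only how far these arrays differ, which may be technical. Since few single genes pass, groups of genes are given by how many members had both 6G- BM-MDSC arrays above, or both below, both MDSC (conv.) arrays. Over all genes this was so for 22.4% (above) and 21.8% (below), and 50.9% of differences were positive and 49.1% negative.

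All 21 sterol synthesis and uptake genes tested were lower in 6G- BM-MDSC than in MDSC (conv.), with no overlap between the arrays of the groups. Among those well above background in both groups, differences ran from -0.56 for Fdps to -0.20 for Pmvk. The median of all 21 was -0.36, beside 0.0037 over all genes. Unadjusted p was under 0.05 for 19 of the 21 (14 with arrays scaled to their median), beside 6.6% over all genes. None passed over all genes in the fit with a constant prior, and 2 fell with the intensity-dependent prior, where limma gave an adjusted p of 0.0391 for Fdps and 0.0498 for Lss. Of the 22 listed genes, Acat2 was not found on the array.

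Hmgcs1, near the start of the pathway, read 4.53 and 4.72 on the MDSC (conv.) arrays and 4.12 and 4.25 on the 6G- BM-MDSC arrays. Both 6G- BM-MDSC arrays lay below both MDSC (conv.) arrays, with a difference of -0.44 ± 0.10 (SE). The kinases and the decarboxylase of the mevalonate steps, Mvk, Pmvk and Mvd, had small gaps, from -0.20 to -0.25. Fdps (probe at chr3:88897549-88897608 on mm9, the build of the files), which makes farnesyl pyrophosphate for sterols and for protein prenylation, read 5.53 and 5.52 in MDSC (conv.) against 4.94 and 4.98 in 6G- BM-MDSC. Its difference of -0.56 ± 0.08 is a 1.48-fold lower level.

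Enzymes of the sterol-specific branch lay lower as well. Squalene epoxidase, Sqle, was at 3.97 and 3.95 in MDSC (conv.) and at 3.45 and 3.65 in 6G- BM-MDSC. Lanosterol synthase, Lss, read 2.19 and 2.21 against 1.74 and 1.73, so that both groups were tight and apart. Its 3 probes differed by -0.47, -0.34 and -0.21. Differences for Cyp51, Msmo1, Nsdhl and Sc5d, which trim lanosterol towards cholesterol, were -0.38, -0.36, -0.34 and -0.42. For Dhcr7, a late step, it was -0.28.

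Transport and control genes lay on the same side as the enzymes. Stard4, a carrier of cholesterol inside the cell, differed by -0.46 ± 0.09. Insig1, which retains SREBP in the endoplasmic reticulum and is itself an SREBP target, differed by -0.37, and Srebf2, the main SREBP of the sterol genes, by -0.24 ± 0.10. Taken by probe in place of gene, all 38 tested probes of the list were lower, and 36 did not overlap. On DCs, grown longer at a lower dose, Idi1 read 4.55 and 4.49 beside 3.93 and 3.94 in MDSC (conv.) and 3.64 and 3.63 in 6G- BM-MDSC, while Fdps in DCs (5.53 and 5.42) was near MDSC (conv.).

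Fatty acid synthesis genes gave larger single differences. Of 15 tested, 14 were negative, 12 did not overlap below MDSC (conv.), 0 did above, and 9 had an unadjusted p under 0.05 (5 with arrays scaled to their median), with a median difference of -0.25. The desaturases led. Scd1, which puts the first double bond into stearate, read -1.09 and -0.99 in MDSC (conv.) and -2.15 and -2.03 in 6G- BM-MDSC, a 2.07-fold lower level. Fads2, the first desaturase of polyunsaturated fatty acids, read -0.04 and -0.00 against -1.03 and -0.95, and its 5 probes differed by -0.97 to -1.56. Scd2 read 5.14 and 5.25 against 4.39 and 4.57. These are the 3 members that fell with the intensity-dependent prior, at adjusted p by limma of 0.0473, 0.0297 and 0.0498, beside 0.214, 0.18 and 0.246 with a constant prior.

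Fasn, the fatty acid synthase, differed by -0.39 ± 0.09, the elongase Elovl6 by -0.46 ± 0.08, and Srebf1, the SREBP of fatty acid genes, by -0.25 ± 0.08. In contrast, Acly and Me1, which supply acetyl-CoA and NADPH, had overlapping arrays and differences of -0.02 and -0.02. Elovl1 was the single positive member, at 0.03. Lipid uptake and PPAR gamma genes had 8 of 12 positive. Without overlap, 3 lay above (25%, near the 22.4% over all genes) and 2 below. Cd36, a fatty acid receptor, read 1.05 and 1.17 in MDSC (conv.) and 1.61 and 1.79 in 6G- BM-MDSC, a difference of 0.58 ± 0.10. Angptl4 and Cpt1a, both induced by fatty acids, lay above without overlap at 0.38 and 0.22, while the sterol exporters Abca1 and Abcg1 differed by -0.02 and -0.20. Neutrophil granule genes also lay lower in 6G- BM-MDSC (13 of 15 secondary and tertiary granule genes had a negative difference), and their part in the lipid differences was not tested.

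**Figure D1:**
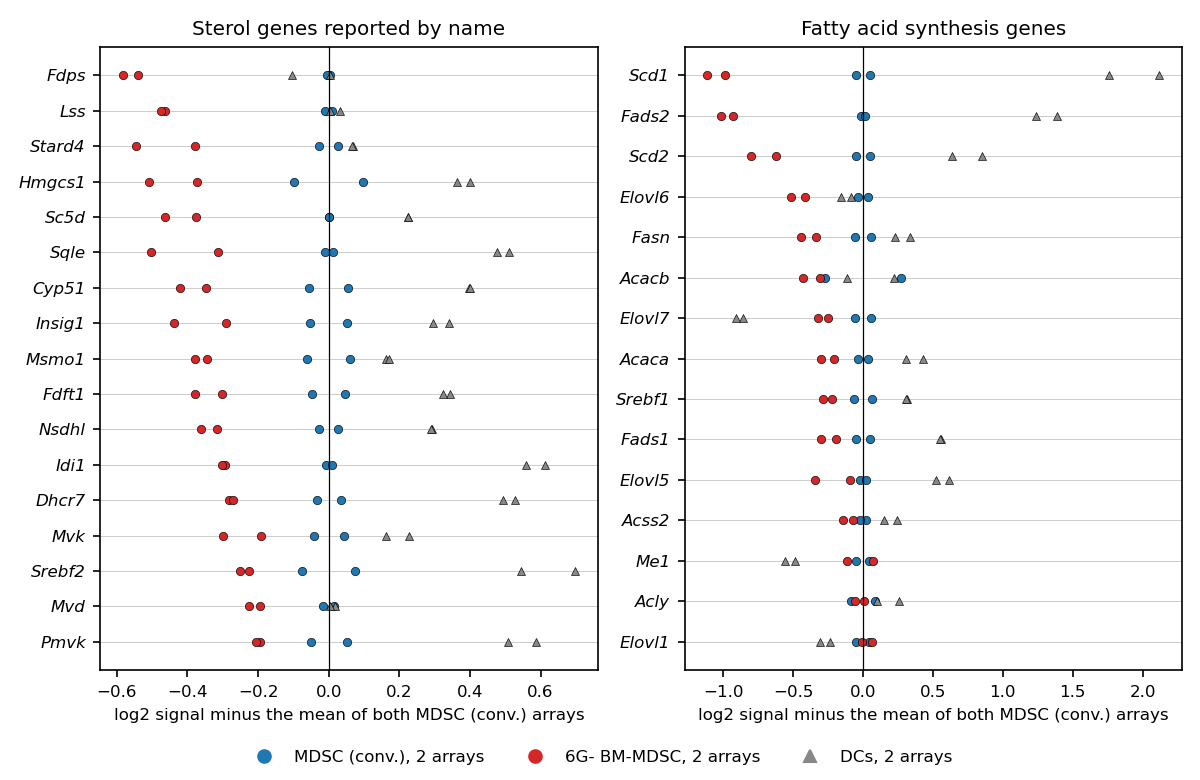
Points give each array's log2 signal minus the mean of both MDSC (conv.) arrays, for 17 of the 21 sterol genes tested (left) and fatty acid synthesis genes (right), sorted by difference. The red 6G- BM-MDSC points lie left of the blue MDSC (conv.) points for all 17 sterol genes shown and for 12 of the 15 fatty acid genes. Grey triangles are DCs.

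Cytokine and chemokine genes lay mostly above MDSC (conv.). Of 28 tested, 22 were positive, 17 did not overlap above and 1 did below, with a median of 0.19, and 6 had an unadjusted p under 0.05. Il1b, the secreted interleukin 1, was not among these 6. It read 2.05 and 2.49 in MDSC (conv.) and 3.24 and 3.34 in 6G- BM-MDSC. Its 3 probes, read on the same arrays, differed by 1.02 to 1.21. Il1a differed by 1.11 ± 0.11, from a dim level of -3.93 and -3.77. Among ligands of Cxcr2, the receptor that draws neutrophils, Cxcl3 read -1.45 and -1.48 against -0.36 on both 6G- BM-MDSC arrays, and Cxcl1 differed by 0.88 ± 0.51. Tnf differed by 0.48 ± 0.08, and the eosinophil attractant Ccl24 by 0.65 ± 0.17. The macrophage chemokines Ccl3 and Ccl4 did not share this, at -0.06 and -0.35 with overlapping arrays. None of these genes passed over all genes, with adjusted p by limma of 0.18 for Il1a and 0.347 for Cxcl3.

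NF-kB feedback genes showed smaller and more uniform differences. Of 17 tested, 16 were positive and 12 did not overlap above, with a median of 0.21 and a highest value of 0.38 for Sod2, the mitochondrial superoxide dismutase. Nfkbia read 6.27 and 6.29 in MDSC (conv.) and 6.55 and 6.55 in 6G- BM-MDSC, a gap well beyond that between its replicates. Tnfaip3 and Tnip1, which act together to restrain the pathway, differed by 0.30 and 0.24, and the adhesion molecule Icam1 by 0.27. Of the DNA-binding subunits, Nfkb1 was at -0.05 (0.25 without 6G- BM-MDSC replicate 2), Rel at 0.02 and Relb at 0.22. Immediate early genes had 21 of 28 positive and 11 not overlapping above, and 0 had an unadjusted p under 0.05. Inflammasome and Toll-like receptor genes were mixed, with 13 of 20 positive. Tlr5, the flagellin receptor, differed by 0.46 and Nlrp1b by -0.64, with its other probes at 0.27 and 0.17.

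**Figure D2:**
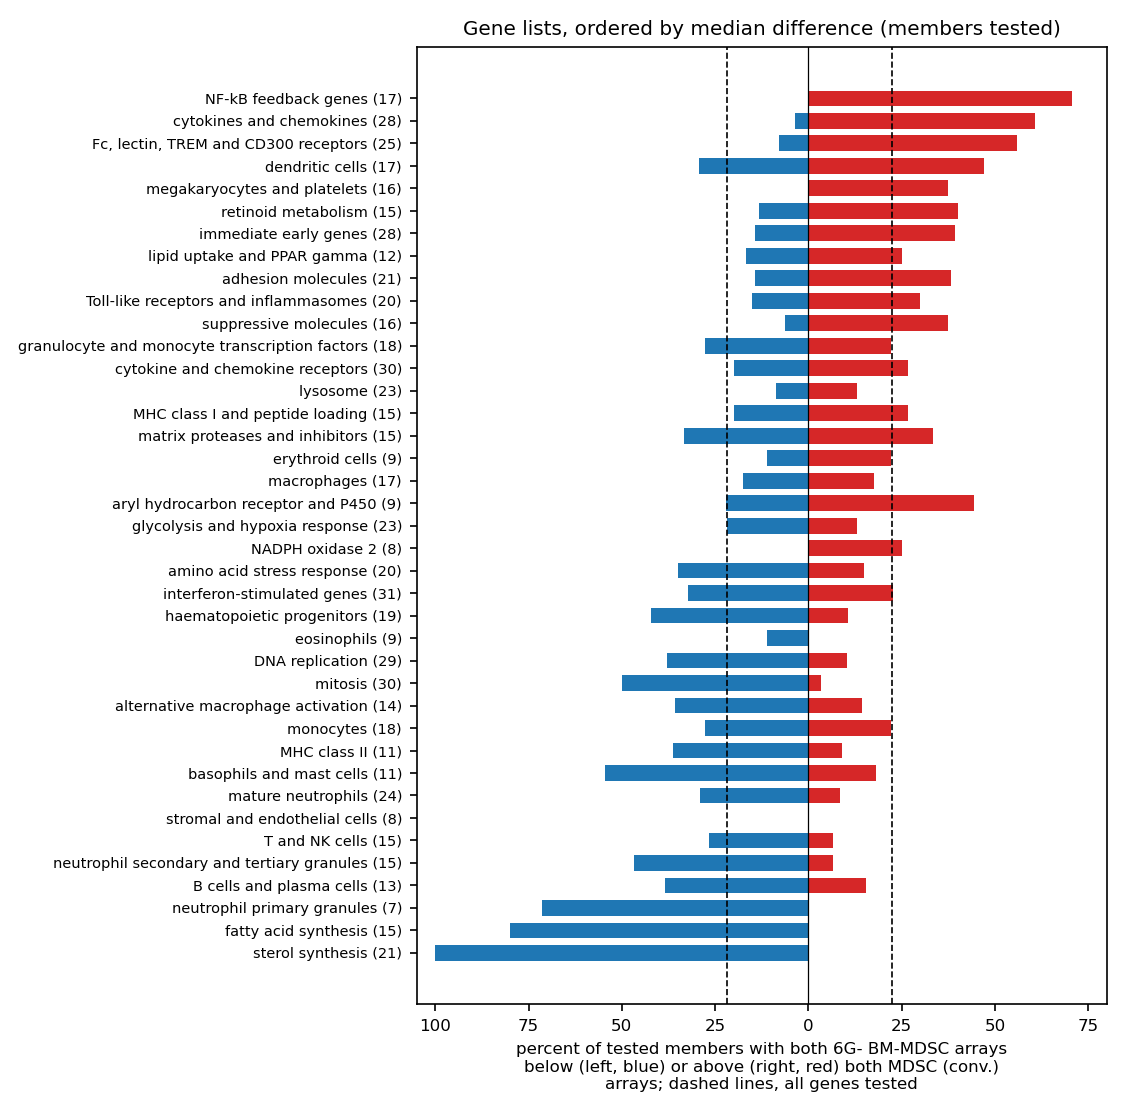
Bars give, for each gene list, the percent of its tested members whose 6G- BM-MDSC arrays both lay below (blue, left) or above (red, right) both MDSC (conv.) arrays, ordered by the median difference. Dashed lines mark 21.8% and 22.4%, the shares over all genes. Sterol synthesis reaches 100% on the left, and NF-kB feedback genes have the longest bar on the right.

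Surface receptors of monocytes and macrophages were split. Cx3cr1, the fractalkine receptor of patrolling monocytes, read -0.71 and -0.40 in MDSC (conv.) and 0.77 and 0.88 in 6G- BM-MDSC, and its second probe differed by 1.62 beside 1.38 here. Adgre4, a relative of F4/80 that the study named, was at 0.23 and 0.22 against 1.69 and 1.32. Csf1r, the receptor for the macrophage growth factor, differed by 0.32 ± 0.08. Against these, some genes of classical monocytes lay lower: F13a1 (coagulation factor XIII) by -0.83 ± 0.68, Ms4a6c by -0.27 and Ccr2, which brings monocytes out of the marrow, by -0.15. Of these, only Ms4a6c had an unadjusted p under 0.05. For Ly6c2 the arrays overlapped, at 7.95 and 7.97 against 7.71 and 7.98. Over the monocyte list, 6 of 18 genes were positive. Without overlap, 4 lay above (22.2%) and 5 below (27.8%), beside 22.4% and 21.8% over all genes.

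Receptors of the Fc, lectin, TREM and CD300 families were positive for 21 of 25 genes, and 14 did not overlap above. Clec4a1, Clec4a2 and Clec4a3, neighbouring lectin receptors of myeloid cells, differed by 0.41, 0.51 and 0.28, and Clec5a by 0.50 ± 0.17 (0.16 and 0.04 on its other probes). Of these, Clec4a1 did not reach an unadjusted p under 0.05. Clec4a2 was dim, at -5.20 and -5.09 in MDSC (conv.), where the weakest signals well above background were -5.37 and -5.38. Cd300e lay on the other side, at -0.38 and -0.76 in MDSC (conv.) against -1.23 and -1.59. Integrins of leukocytes, Itgam, Itgal and Itga5, differed by 0.29, 0.19 and 0.26, each with arrays that did not overlap, but a second, dimmer probe was at -0.07 for Itgam and at -0.71 for Itgal. The formyl peptide receptor Fpr1, which guides cells to bacteria, read 5.06 and 5.07 in MDSC (conv.) and 5.85 and 5.81 in 6G- BM-MDSC. It had the largest positive difference among the 1500 brightest genes (0.77 ± 0.11). It rose with the intensity-dependent prior (adjusted p by limma 0.0413), but adjusted p was 0.221 with a constant prior.

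Granulocyte genes lay mostly below MDSC (conv.). Ly6g itself read 1.95 and 1.96 in MDSC (conv.) and 1.71 and 1.86 in 6G- BM-MDSC, without overlap but with a difference of only -0.17 ± 0.11 (limma, adjusted p = 0.626). Of 7 primary granule genes, 5 did not overlap below (71.4%, beside 21.8% over all genes) and the other 2 were positive. The 5 were led by the proteases Prss57 (-0.45) and Prtn3 (-0.43) and by Mpo (-0.34). Only Prtn3 and Mpo had an unadjusted p under 0.05. Of 15 secondary and tertiary granule genes, 13 were negative and 7 did not overlap below (46.7%), among them Fcnb (-0.56), Orm1 (-0.48) and Ngp (-0.46). Mmp9, the gelatinase of the latest granules, was an exception at 0.36. Summed over the list, the linear level of these secondary granule genes, with the 75th percentile of the array as 1, came to 1541 and 1593 in MDSC (conv.) against 1373 and 1352 in 6G- BM-MDSC, and that of primary granule genes was 459 and 463 against 392 and 405.

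Of 18 granulocyte and monocyte transcription factors tested, 10 were positive, with a median of 0.05. Without overlap, 4 lay above (22.2%) and 5 below (27.8%), beside 22.4% and 21.8% over all genes. Those below included factors of the granulocyte branch. Cebpe, needed for secondary granules, differed by -0.36 ± 0.13, Gfi1, which holds the granulocyte fate, by -0.36 ± 0.11, and Cebpa by -0.20 ± 0.07. Irf8, a factor of monocytes and dendritic cells, lay above without overlap at 0.18, and Spi1 (PU.1) overlapped at 0.09. Mature neutrophil genes were negative for 18 of 24. Without overlap, 7 lay below (29.2%, beside 21.8% over all genes) and 2 above (8.3%, beside 22.4%). The highest of this list was Fpr1, at 0.77 without overlap. The summed level of the list overlapped between groups, at 1167 and 1161 against 1042 and 1244. Cxcr2 read 2.0 and 2.12 in MDSC (conv.) and 1.36 and 1.33 in 6G- BM-MDSC, so the receptor lay lower where its ligands Cxcl1 and Cxcl3 lay higher. Cxcr2 fell with the intensity-dependent prior (adjusted p by limma 0.0413), but adjusted p was 0.214 with a constant prior. Retnlg and G0s2 differed by -0.33 and -0.36, while S100a8 and Csf3r had overlapping arrays at -0.02 and -0.05.

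**Figure D3:**
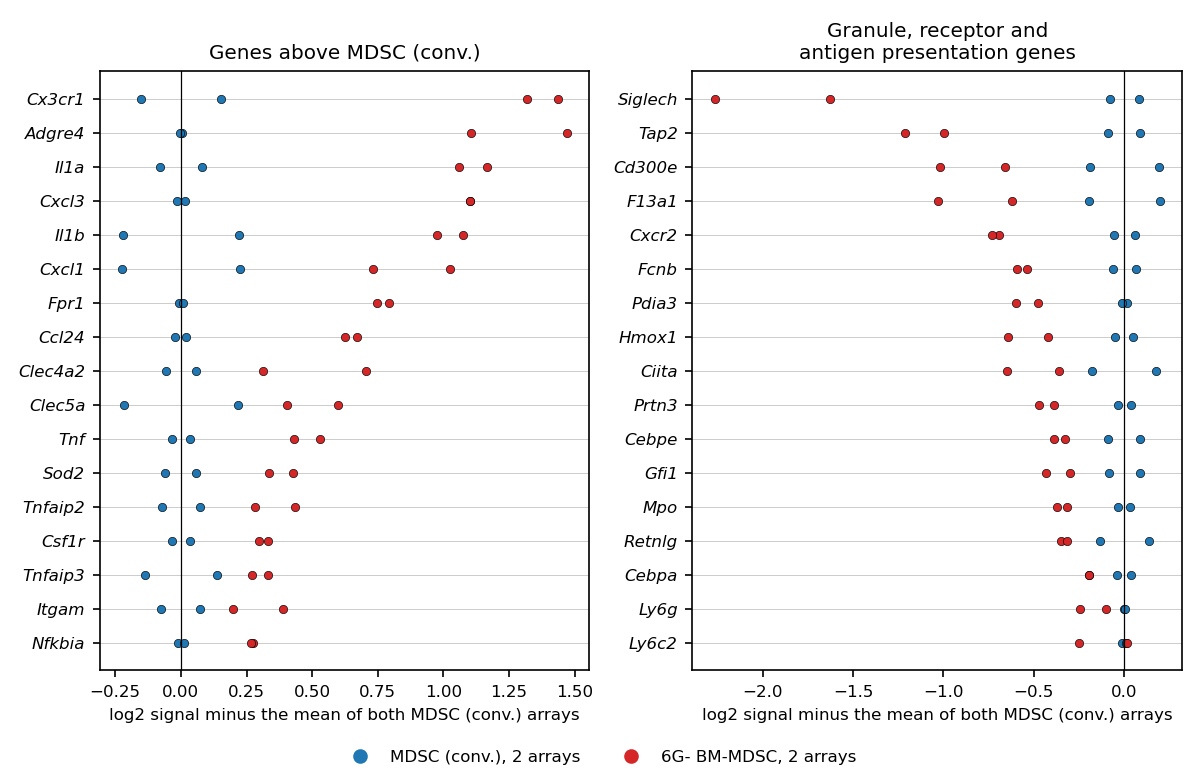
Points give each array's log2 signal minus the mean of both MDSC (conv.) arrays, for cytokine, NF-kB and receptor genes (left) and for granule, receptor and antigen presentation genes (right). Red 6G- BM-MDSC points lie right of blue MDSC (conv.) points for all genes on the left panel and left of them for the genes of the right panel except Ly6c2, whose points overlap.

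Antigen presentation genes were lower at single steps. Tap2 (probe at chr17:34353116-34353175 on mm9) forms the peptide transporter with Tap1. It read 4.29 and 4.11 in MDSC (conv.) and 3.21 and 2.99 in 6G- BM-MDSC. Tap2 fell with the intensity-dependent prior (adjusted p by limma 0.0243), but adjusted p was 0.183 with a constant prior. A second, dim probe differed by -0.55. Tap1 was at -0.02 with overlapping arrays, and the class I genes H2-K1 and B2m were at 0.08 and 0.08. Pdia3, a chaperone of peptide loading, differed by -0.54 and by -0.40 on its other probe. Among MHC class II genes 8 of 11 were negative, with Ciita, their master regulator, at -0.51 ± 0.17 and H2-DMb1 at -0.35. The mean over both probes of H2-DMb1, the second of which was not well above background in either MDSC group, was 0.03.

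Dendritic cell genes ran both ways. Siglech (probe at chr7:63034088-63034147 on mm9) marks plasmacytoid dendritic cells. It read 5.56 and 5.72 in MDSC (conv.) and 4.01 and 3.37 in 6G- BM-MDSC. Siglech fell with the intensity-dependent prior (adjusted p by limma 0.0413), but adjusted p was 0.235 with a constant prior. This rests on 1 probe, whose spot on 1 DC array was marked by the image software and left out, and its other 2 probes were above background on no array. Batf3, Itgae and Clec9a, genes of conventional dendritic cells, lay above without overlap at 0.32, 0.37 and 0.38, and the probes of Flt3 were split, at 0.30 and -0.81, while Epcam and Cd80 lay below at -0.76 and -0.33. Interferon-stimulated genes were negative for 18 of 31, with Ifit3 at -0.74 and Isg15 at -0.51 but Oasl1 at 0.25, and a median of -0.05 that was 0.01 with arrays scaled to their median.

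Genes of suppression lay on both sides. Of 16 tested, 9 were positive and 6 did not overlap above. Nos2, inducible nitric oxide synthase, read -2.24 and -3.25 in MDSC (conv.) and -2.11 and -2.05 in 6G- BM-MDSC, a difference of 0.66 ± 0.33 that was 0.16 without the second MDSC (conv.) array. Ptgs2, which starts prostaglandin synthesis, differed by 0.40 ± 0.10, and Cd274 (PD-L1) by 0.18. Hmox1, the haem-degrading enzyme, lay lower, at 3.85 and 3.95 against 3.48 and 3.26. NADPH oxidase 2, the source of reactive oxygen in phagocytes, was nearly level, with its catalytic subunit Cybb at -0.03 ± 0.08 and the cytosolic subunits Ncf1 and Ncf4 at 0.13 and 0.24 (-0.05 for Ncf1 as the mean of its probes). Rb1 differed by 0.24 ± 0.10. By PCR, the study compared Ly-6G+ cells from 6G- BM-MDSC with MDSC grown from Ly-6G+ marrow. In the former, Cybb was higher and Rb1 tended to be lower. The arrays do not hold that comparison. PCR in the study also covered unseparated MDSC (conv.) and 6G- BM-MDSC. Nos2 did not differ significantly among its groups, though the paper describes a tendency to higher Nos2 in 6G- BM-MDSC.

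Among enzymes of small lipophilic molecules, Cyp1b1, a target of the aryl hydrocarbon receptor, read -4.36 and -4.43 in MDSC (conv.) and -3.12 and -2.72 in 6G- BM-MDSC. The other classical targets did not match it in size, with Nqo1 at 0.31, Ahrr at 0.14 and Tiparp at 0.14, and Cyp1a1 was well above background on no array. Cyp26b1, which breaks down retinoic acid, read -1.39 and -1.51 against -0.35 and -0.34. Dhrs3, which reduces retinal, and the retinoic acid receptor Rarg also lay above without overlap, at 0.28 and 0.27. Stra6, the retinol importer, lay below at -0.41. Matrix proteases and their inhibitors were split, with 5 of 15 above and 5 below without overlap. Among those above, Timp1, an inhibitor of metalloproteases, differed by 0.67 ± 0.14 and the gelatinase Mmp2 by 0.40 ± 0.10.

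Cell cycle genes had small differences, whose direction depended on the scaling. Mitosis genes were negative for 23 of 30 with 15 not overlapping below and a median of -0.06, and DNA replication genes for 22 of 29 with 11 not overlapping below and the same median. With arrays scaled to their median, both medians were positive, at 0.0047 for mitosis and 0.0058 for DNA replication. The kinetochore motor Cenpe differed by -0.35 and the checkpoint gene Mad2l1 by -0.21, while Mki67 differed by -0.06 and Kif11 by 0.41 in the other direction. Hmgb2, a chromatin protein of dividing cells, read 6.36 and 6.46 in MDSC (conv.) and 5.86 and 5.81 in 6G- BM-MDSC, though 1 of its 4 probes was level at -0.03. Progenitor genes were negative for 14 of 19, with the stem cell factor Erg at -0.98 ± 0.19, Myb at -0.36 and Kit at -0.33, and their median of -0.05 was 0.01 with arrays scaled to their median.

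Genes of other lineages ranged from dim to bright. B and plasma cell genes were negative for 11 of 13, with Pax5 at -0.35 and Vpreb3 at -0.41, and summed to a linear level of 11.5 on both MDSC (conv.) arrays and 10.9 and 10.8 on the 6G- BM-MDSC arrays. Rag1 and Rag2, which recombine antigen receptor genes, were well above background on no array. T and NK cell genes were negative for 12 of 15, among them Cd3d (-0.39) and Gata3 (-0.43). Megakaryocyte and platelet genes were positive for 15 of 16 and 6 did not overlap above, but none had an unadjusted p under 0.05, and the highest was the platelet glycoprotein Gp5 at 0.36. Basophil and mast cell genes had 6 of 11 below without overlap, with Hdc, which makes histamine, at -0.31. The 9 eosinophil genes tested had 1 below without overlap. Prg2, an eosinophil granule protein, was bright, at 6.16 and 6.28 in MDSC (conv.) and 6.18 and 6.01 in 6G- BM-MDSC. Of 9 erythroid genes, Car2 (carbonic anhydrase) stood out at 0.60 ± 0.09. It rose with the intensity-dependent prior (adjusted p by limma 0.0414), but adjusted p was 0.221 with a constant prior. Slc4a1 and Epor were at 0.12 and 0.14 (-0.16 without MDSC (conv.) replicate 2 and -0.01 without replicate 1). Alas2 was well above background on no array.

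Over all genes, 2-fold differences were few. At least 2-fold and without overlap, 58 genes (0.265%) were higher and 162 (0.741%) lower. Of the higher genes 43, and of the lower genes 125, lay in the lowest quintile of signal, and the 2 replicates of a group were themselves at least 2-fold apart for 20 and 78. Well above background on all 4 arrays were 22 and 54. Of those with a proper gene symbol and replicates less than 2-fold apart in both groups, 15 were higher and 15 lower. Ppm1n, a phosphatase, read -0.42 and -0.07 against 1.08 and 0.84, and Ascl2, a basic helix-loop-helix factor, -0.85 and -0.26 against 0.52 and 0.69. Just under the limit, both probes of Igf2bp2, an RNA-binding protein, lay above MDSC (conv.), by 0.93 and 0.87.

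On the lower side, Traf4, an adaptor of receptor signalling, read 0.26 and 0.01 in MDSC (conv.) and -0.94 and -1.12 in 6G- BM-MDSC. Slc22a16, a carnitine transporter, read -0.78 and -0.76 against -2.0 and -2.02, the smallest unadjusted p of the genes named here that were detected on all arrays (4.43e-05, adjusted p by limma 0.161). Trappc3, of a vesicle tethering complex, differed by -1.21 ± 0.16, and the receptor Ephb6 by -1.72 ± 0.20. Some large means rested on 1 array. E2f4, a repressor of cell cycle genes, read -0.94 and -4.48 in 6G- BM-MDSC beside -0.66 and -0.57 in MDSC (conv.), and Iqsec3 read -2.73 and 0.59 beside 0.78 and 0.77. Without 6G- BM-MDSC replicate 2 the difference of E2f4 was -0.32, and without replicate 1 that of Iqsec3 was -0.18.

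The 3 genes past the adjusted test were each not well above background in 1 group. Tmprss11f, a membrane serine protease, was well above background on both 6G- BM-MDSC arrays and on no MDSC (conv.) array and rose at least 1.72-fold (limma, adjusted p = 0.00462, and 0.0628 with the intensity-dependent prior). Trim15, a ubiquitin ligase, was above background only in MDSC (conv.), where it was at least 3.71-fold higher (adjusted p = 0.0189), and the transcript AK053624 at least 6.22-fold (adjusted p = 0.0178). For each bound, the dim group was put at the array's weakest signal among probes well above background, or at the probe's own where higher. Rgs4, a brake on G protein signalling, read -3.09 and -1.36 in MDSC (conv.) and was not well above background in 6G- BM-MDSC, at least 9.23-fold lower, with replicates that themselves differed more than 2-fold (adjusted p by limma 0.183). In all, 99 genes were well above background on both 6G- BM-MDSC arrays and no MDSC (conv.) array, and 160 the other way round.

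Several bright genes depended on the probe chosen. Rps10, a ribosomal protein, differed by 0.42 on its brightest probe and by -0.45 and 0.06 on the others. Emd, a protein of the inner nuclear membrane, differed by -0.69 on its brightest probe and by -0.34, 0.00 and -0.02 on the others. By contrast both probes of Ninj1, which ruptures the membrane of dying cells, differed by 0.48 and 0.47, and both of Clic1, a chloride channel protein, by -0.56 and -1.0.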

How the data were processed

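Levels of RNA were read on 6 Agilent mouse arrays of 1 colour. The deposited values are processed intensities from the authors' Feature Extraction software (version 10.5.1.1 in the submitters' notes, 10.7.3.1 in the file headers), background-subtracted and not scaled between arrays. Control probes and spots marked as outliers (103 to 146 per array) were left out, and no spot was saturated. The number of arrays limits the precision. Here log2 was taken and each array's 75th percentile subtracted. Probes well above background on both arrays of at least 1 of the groups were tested (33482 of 56605 probes). Gene names were updated through RefSeq accessions, which matched 58.3% of probes. Probe coordinates are on mm9.

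Groups were compared with limma 3.58.1 in R 4.3.3 (package data.table, version 1.17.8), with a fit on every array and the group as sole factor (3 residual degrees of freedom, prior 1.96) and Benjamini-Hochberg adjustment over 21860 genes. The script was tested on simulated data. The genes named were, among genes with arrays that did not overlap, the 14 highest and 14 lowest differences of those well above background on all 4 MDSC arrays and the 8 highest and 8 lowest of the 1500 brightest, the 6 brightest of each side detected in 1 group alone, those past the adjusted test, the 12 highest and 12 lowest past it with an intensity-dependent prior, up to 4 members of each of 39 gene lists, and genes the study sorted on, measured or named. The text describes part of these, and some sterol genes counted in their list are not reported by name here. Other list members, second probes and the sterol motif were chosen once values had been seen. The comparison, its members and the lists were chosen with earlier results of these data known, so no list has a p of its own. The alternatives were normexp background correction (offset 50), quantile or median scaling, other filters on dim probes, averaging a gene's probes, probes in place of genes, marked spots kept, the authors' deposited value table, the 4 MDSC arrays alone, the intensity-dependent prior, the methods' t-test, a replicate block, a 1.5-fold limit and leaving out each array.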

Additional observations from a re-analysis of the deposited data

How the results depend on the processing

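All 21 sterol synthesis genes tested had a negative difference in every setting tried (20 of 20 with the filter on all 6 arrays, 38 of 38 probes in place of genes), with a median between -0.38 and -0.30. Arrays did not overlap for 20 of the 21 with normexp. With median scaling 14 of 21 sterol and 5 of 15 fatty acid genes had an unadjusted p under 0.05. At an adjusted p under 0.05, the 1 higher and 2 lower genes became 2 and 7 with normexp, 11 and 53 with the intensity-dependent prior, and 0 and 0 with the methods' t-test (843 and 938 at an unadjusted p under 0.05) and with the limma fit restricted to probes detected on all 6 arrays. In limma the lower count was 0 without a filter on dim probes (1750 unadjusted) and 1 with only the 4 MDSC arrays. Leaving out 1 array gave 0 to 1 higher and 0 to 8 lower genes, with 0 on both sides without 6G- BM-MDSC replicate 2. No call of a single gene held in every setting. Adjusted p by limma was 0.0538 for Tmprss11f with normexp, 0.0949 for AK053624 with the 4 MDSC arrays and 0.111 for Trim15 there.

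With the replicate number as a block, 1 gene was higher and 2 were lower, 1 of these being a lower gene of the fit without the block (Trim15 was at 0.124). Replicate deviations correlated at 0.114 between both MDSC groups, 0.125 between MDSC (conv.) and DCs and 0.042 between 6G- BM-MDSC and DCs, so the numbers were not taken to pair the samples.

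The 58 higher and 162 lower genes of at least 2-fold became 6 and 26 with normexp, whose offset of 50 by construction shrinks differences of dim probes, 16 and 46 with the filter on all 6 arrays, and 252 and 648 at 1.5-fold. Leaving out 1 array gave 58 to 125 higher (125 without MDSC (conv.) replicate 1, 90 without replicate 2) and 162 to 337 lower (337 without 6G- BM-MDSC replicate 1, 290 without MDSC (conv.) replicate 2). Apart from these constructions the cause was not tested. No difference past the adjusted test changed sign, but 26 of 226 gene differences and 16 of 39 list medians did in at least 1 setting, among them 8 and 8 with median scaling.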
